A study of Ovis aries and Mus musculus with 10 samples.

Results

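miR-126 is a microRNA of the endothelium, the cell layer that lines blood vessels, and both strands of its hairpin, mmu-miR-126-3p and mmu-miR-126-5p in the array's naming, were followed through the mammary cycle of sheep and mouse. The members were the 2 miRNAs on the array that carried these names, out of 567 mouse miRNAs. Mammary gland RNA was hybridised to 10 one-colour Agilent miRNA arrays, 5 per species, and no stage and day had more than 1 array. Ewes were sampled on day 15 of the cycle, on days 14, 64 and 125 of gestation, and on day 60 of lactation. CD1 mice were sampled as virgins, on days 10 and 17 of gestation, and on days 2 and 10 of lactation. The labels name no treatment of the animals, and they give neither ages nor the number of animals behind an array. The probes were designed for mouse miRNAs on both species' arrays, and how well they match the sheep strands was not examined here.

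The miR-126 hairpin lies in an intron of Egfl7, a gene for a secreted factor of endothelial cells, and is transcribed with it. The 3p strand is the abundant one in endothelium, where it represses SPRED1 and PIK3R2, inhibitors of signalling downstream of VEGF, the main growth factor of vessels. The 5p strand is known in mouse for repressing Dlk1, a brake on endothelial proliferation. The vessel bed of the mammary gland expands during pregnancy and supplies the secretory epithelium in lactation, and miR-126 was followed here as a marker of those vessels. Among the cell type markers used here, miR-126-3p is also listed for platelets and haematopoietic cells.

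Each strand was read by 2 probes with 10 spots apiece. In the mouse build mm9, the probes for miR-126-3p target chr2:26446926-26446943 and chr2:26446925-26446943, stretches of 18 and 19 bases that end at the same base. Those for miR-126-5p target chr2:26446886-26446905 and chr2:26446885-26446905, of 20 and 21 bases. Between the 2 strands lie 19 bases of the hairpin, and no other mouse miRNA on the array had a target within 1 Mb of them.

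Total brightness differed strongly between arrays. Taken over the 94 miRNAs that every array detected, the 75th percentile lay between 246 and 1998 arbitrary units, an 8.13-fold range, and 125 to 208 miRNAs were detected per array. Values below are therefore scaled intensities, in which 1 is that percentile on the same array, and differences are given on the log2 scale. Of the epithelial markers, 6 of 6 lay above the floor, the lowest intensity taken as measured, on every array, whereas the liver marker miR-122 and the neural markers miR-124 and miR-9 lay at the floor on all 10. The striated muscle markers stood out on 2 mouse arrays, with a mean of -1.33 on the log2 scale in virgin gland and -2.85 at gestation day 17, against -5.11, the floor, on the other 3 mouse arrays. The red cell list (miR-144, miR-451 and miR-486) also differed between arrays. Its mean was -1.07 in virgin mice, between -3.12 and -1.99 on the later mouse arrays and between -4.33 and -3.64 in sheep. Of that list miR-144 lay at the floor on 6 arrays and miR-486 on 7. The part of striated muscle or blood in the miR-126-3p level was not tested.

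miR-126-3p was bright in the gland of both species at every stage. It was detected on 10 of 10 arrays, and all 20 of its spots were well above background on each of them. In sheep its scaled intensity was 1.12 at cycle day 15, 1.47 at gestation day 14, 1.92 at day 64 and 1.46 at day 125, and 2.55 at lactation day 60. The lactating sheep gland was thus the highest and the cycling gland the lowest, while gestation days 14 and 125 lay side by side. In mouse it was 1.88 in virgin gland, 2.21 and 1.86 at gestation days 10 and 17, then 2.05 and 1.39 at lactation days 2 and 10. The mouse values stayed close together up to lactation day 2, and lactation day 10 was the lowest. The ranges of the species overlapped, with sheep running wider than mouse.

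**Figure D1:**
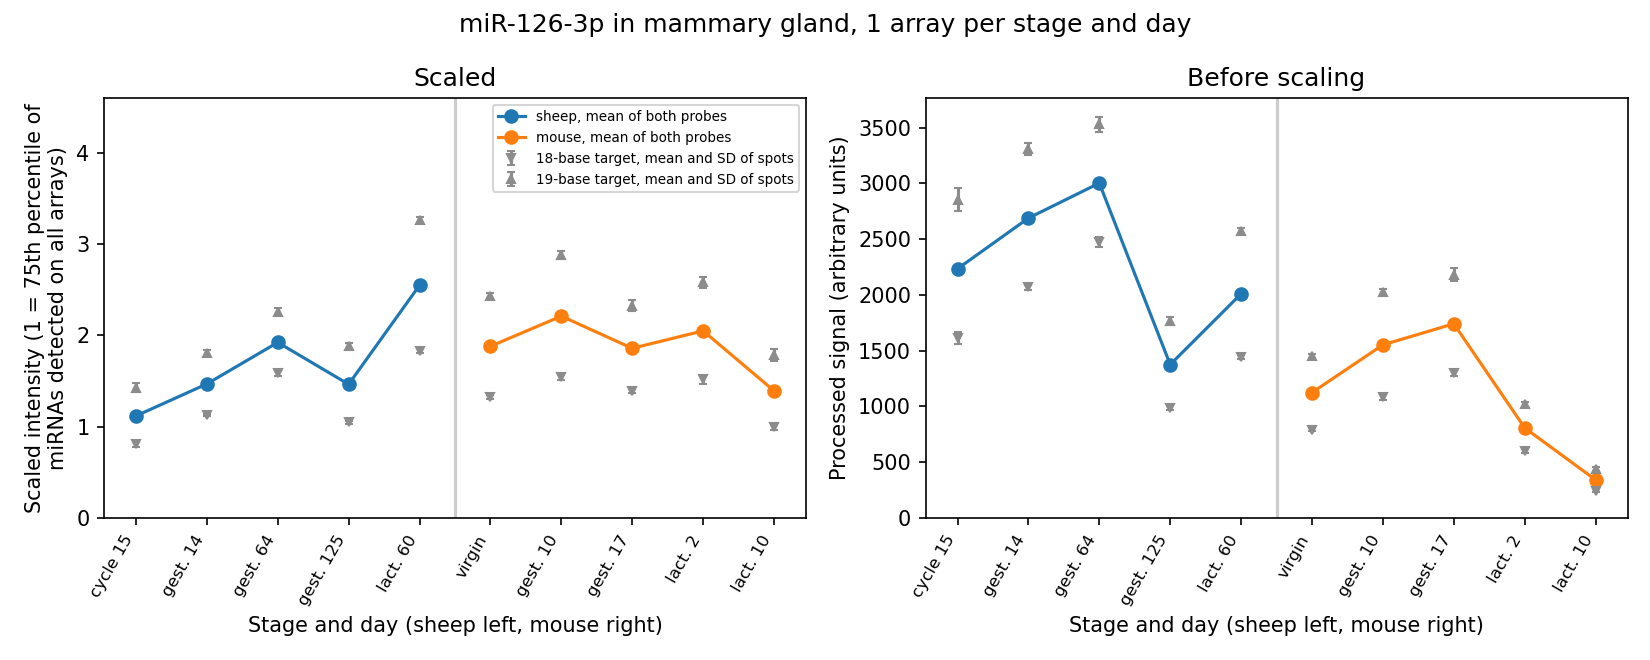
miR-126-3p on each of the 10 arrays, as scaled intensity on the left and as processed signal before scaling on the right, with stage and day along the x axis and sheep to the left of mouse. Circles are the mean of both probes and triangles the single probes with the SD of their spots; scaled sheep values run between 1.12 and 2.55 and scaled mouse values between 1.39 and 2.21.

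Spot error within an array was small beside these differences. The SD between spots of one probe was 1.12% to 4.14% of the mean. The 2 probes put the arrays in nearly the same order: both gave lactation day 60 as the highest and cycle as the lowest in sheep, and gestation day 10 as the highest and lactation day 10 as the lowest in mouse. They disagreed on gestation days 14 and 125 in sheep and on virgin gland and gestation day 17 in mouse, which are neighbours in the order of levels. The signal of the probe with the longer target was 1.43 to 1.87 times that of the other, and the factor was lowest at sheep gestation day 64, the array with the brightest miR-126-3p signal. Across the 10 arrays this factor and the miR-126-3p signal had a Pearson r of -0.66 and a Spearman rho of -0.61, as a description over arrays that share both probes. Spots of one array say nothing of the spread between animals, and with no second array at any stage and day, neighbouring levels cannot be ranked beyond it.

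Before scaling, miR-126-3p took another course. Its processed signal was 2234 at sheep cycle day 15, 2688, 3002 and 1375 at gestation days 14, 64 and 125, and 2010 at lactation day 60. In mouse it was 1125 in virgin gland, 1553 and 1741 at gestation days 10 and 17, then 808 and 342 at lactation days 2 and 10. The unscaled signal thus spanned an 8.77-fold range over the 10 arrays, and the scaled value a 2.28-fold range. From gestation day 17 to lactation day 2 in mouse, miR-126-3p changed by -1.11 before scaling, beside -1.25 for the percentile of the shared miRNAs, both on the log2 scale. In bulk gland, fewer cells of a type and less miRNA per cell cannot be told apart.

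In the value table that the authors deposited, the order was another one. There miR-126-3p had 1310 units at sheep cycle day 15, 973, 1318 and 2309 at gestation days 14, 64 and 125, and 3638 at lactation day 60. The mouse values were 4602 in virgin gland, 2986 and 1038 at gestation days 10 and 17, then 1560 and 1695 at lactation days 2 and 10. Virgin mice were the highest of all 10 arrays there, whereas by scaled intensity they lay below mouse gestation day 10 and lactation day 2. That table equals Agilent's total signal per miRNA times a constant for each array, between 0.275 at sheep gestation day 14 and 3.73 at mouse lactation day 10. How the constants were set is not given in the sources used here.

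By scaled intensity, miR-126-3p varied less over the 10 arrays than most miRNAs detected on all of them. It is among the miRNAs that set the scaling, and this ranking was not matched for brightness. Its range was 1.19 on the log2 scale, against a median range of 2.35, and 11 of the 94 miRNAs had a narrower one. Within mouse its range was 0.67, against a median of 1.12, with 22 of 94 narrower. Within sheep it was 1.19, against a median of 1.32, with 38 of 94 narrower. The largest single step was in sheep, from gestation day 125 to lactation day 60, at 0.80 ± 0.01 (standard error between spots), a 1.74-fold higher value. In that step 40.4% of the 94 shared miRNAs changed by more. The next largest was in mouse, from lactation day 2 to day 10, at -0.56 ± 0.02, and 38.3% of the shared miRNAs changed by more. With a single array before and after, no step could be tested.

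miR-126-5p gave a weak signal. The software called it detected on 7 of 10 arrays, 5 sheep and 2 mouse, and on no array were all of its spots well above background. With the longer target, the probe read 50.6 units at sheep cycle day 15, 35.8, 21.5 and 19.3 at gestation days 14, 64 and 125, and 36.7 at lactation day 60. In mouse it read 5.24 in virgin gland, 11.05 and 34.9 at gestation days 10 and 17, then 14.6 and 7.62 at lactation days 2 and 10. The 654 to 672 negative control spots per array, which carry no miRNA probe, averaged 4.05 to 5.69 units with an SD of 3.44 to 3.95. This probe thus stood above every negative control spot on 6 arrays, the 5 of sheep and mouse gestation day 17. In virgin mice it lay 0.33 SD above the negative control mean, and at mouse lactation day 10 it lay 0.71 SD above it.

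The probe with the shorter miR-126-5p target read less. Its mean was highest at sheep gestation day 64, at 17.5 units or 3.35 SD above the negative controls, and lowest in virgin mice, at -0.63 units. On 7 of 10 arrays it lay under 2 SD above the negative control mean, where the SD is that of single spots. No array had it above every negative control spot.

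**Figure D2:**
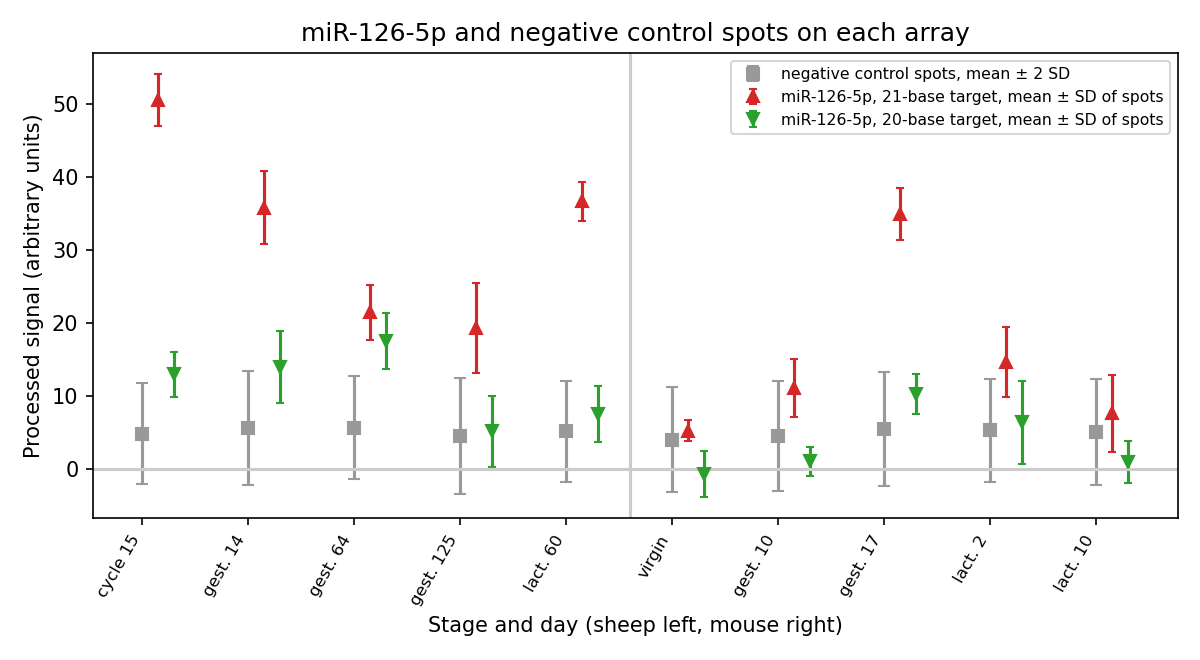
Processed signal of the 2 miR-126-5p probes on each array, with the SD of their spots, beside the negative control spots of the same array with 2 SD, and with stage and day along the x axis, sheep to the left of mouse. The probe with the 21-base target stands clear of the negative controls on the sheep arrays and at mouse gestation day 17, and close to them in virgin mice and at mouse lactation day 10, where it reads 5.24 and 7.62 units.

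Averaged over both probes and scaled, miR-126-5p was 0.0159 at sheep cycle day 15, 0.0136, 0.0125 and 0.0130 at gestation days 14, 64 and 125, and 0.0280 at lactation day 60. In mouse it was 0.00385 in virgin gland, 0.00865 and 0.0241 at gestation days 10 and 17, then 0.0267 and 0.0175 at lactation days 2 and 10. All 10 values lay under the floor of 0.0290, so they have no order at that floor. The negative control mean, divided by the same percentiles, was 0.00243 at sheep cycle day 15 and 0.0206 at mouse lactation day 10. At mouse lactation day 10 and in virgin mice miR-126-5p lay below the negative control mean of its array. No fold change is given for miR-126-5p.

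Neither strand was called in any comparison of stages, so 0 of the 2 members passed in each. The comparisons were fitted with limma over 213 miRNAs detected on at least 3 arrays, with species and stage class as terms and p-values adjusted by Benjamini-Hochberg over all of them. miR-126-3p averaged 0.95 ± 0.44 in lactation (SD, n = 3) and 0.82 ± 0.26 in gestation (SD, n = 5) on the log2 scale, over the arrays of both species. The difference of lactation from gestation was 0.09 ± 0.28 (standard error), with a 95% interval of -0.57 to 0.76 and an adjusted p of 1 by limma. Of the 213 miRNAs, 2.82% were called in that comparison. Within sheep the difference was 0.67 and within mouse it was -0.26. Without the array of sheep lactation day 60 it was -0.34. Virgin gland and gestation day 10 of mouse were on another slide than the other 8 arrays, and with slide as a term the difference was 0.31.

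Against gland that was not pregnant, miR-126-3p was higher by 0.39 ± 0.34 in lactation, with an interval of -0.42 to 1.20 and an adjusted p of 0.612 by limma. Sheep in cycle and virgin mice made up the class not pregnant, which averaged 0.54 ± 0.53 (SD, n = 2). The background there was 3.76% called. Within sheep the difference was 1.19, and within mouse it was -0.15. Without the array of sheep lactation day 60 it was -0.01, and fitted with slide as a term it was 0.77. Among the arrays of slide 1, where sheep cycle day 15 alone made up the class not pregnant, it was 0.90. In gestation against not pregnant, miR-126-3p was higher by 0.30 ± 0.31, with an interval of -0.44 to 1.04 and an adjusted p of 1 by limma, beside 0.469% of miRNAs called. Without the array of sheep cycle day 15 that difference was -0.09, and fitted with slide as a term it was 0.47. Among the arrays of slide 1, again with sheep cycle day 15 alone as not pregnant, it was 0.62. A step within one slide was that from virgin gland to gestation day 10 in mouse, at 0.23.

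The change from gestation to lactation was compared between the species in a model with a mean for each species and stage class. For miR-126-3p it was larger in sheep than in mouse by 0.93 ± 0.39, with an interval of -0.11 to 1.97, an unadjusted p of 0.069 and an adjusted p of 0.576 by limma, beside 0.939% of miRNAs called. The sheep change rests on 1 lactation array, which lay above all 3 gestation arrays. The mouse arrays of lactation and gestation overlapped. With slide as a term this difference was 0.80.

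**Figure D3:**
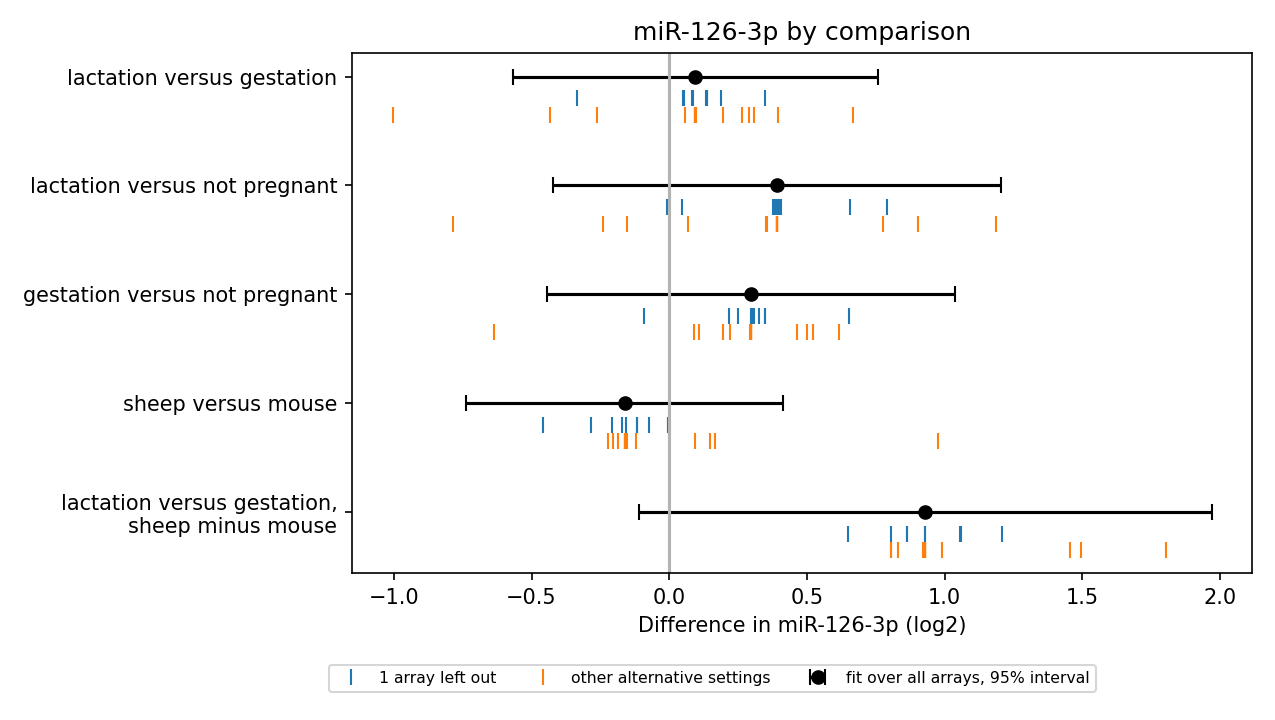
Differences in miR-126-3p on the log2 scale for the comparisons of stages and species, with the fitted value and its 95% interval in black. Blue ticks are the values with 1 array left out and orange ticks those under the other alternative settings; each of the 5 intervals spans 0.

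Between the species, miR-126-3p averaged 0.71 ± 0.45 in sheep and 0.89 ± 0.25 in mouse (SD, n = 5 each), on the log2 scale. Adjusted for stage class, sheep differed from mouse by -0.16 ± 0.24, with an interval of -0.74 to 0.41 and an adjusted p of 0.653 by limma. In this comparison 21.6% of miRNAs were called. With slide as a term the value was 0.15, and on slide 1 alone it was 0.17. A probe made for mouse and a level that differs between the species cannot be told apart here.

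Held at the floor on all arrays, miR-126-5p had a difference of 0 in each of these fits, with an adjusted p of 1 by limma, which says nothing of its course. A lower floor would take in values that cannot be told from the negative controls on the 3 mouse arrays where miR-126-5p was not detected. The scaled negative control level was also uneven, at 0.00657 in sheep lactation and 0.0135 and 0.0206 at mouse lactation days 2 and 10, against 0.00307 to 0.00648 in gestation and 0.00243 and 0.00678 in sheep cycle and virgin mice. No change of miR-126-5p between stages or species was therefore read.

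For the same reason the strands could not be compared. The log2 difference of 3p from 5p within an array differed by -0.18 in sheep against mouse (exact permutation test, two-sided, p = 0.46, where 252 regroupings allow a p of 0.00794 at the lowest). With miR-126-5p at the floor on every array, that value carries miR-126-3p alone.

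Relative to markers of other cell types on the same array, miR-126-3p followed different courses. This difference within an array does not depend on scaling apart from the floor, and it is read here only as a change between arrays. Against the mean of the 6 epithelial miRNAs (the miR-200 family with miR-141 and miR-429, and miR-205), miR-126-3p stood at 2.87 in virgin mice, 2.29 and 0.93 at gestation days 10 and 17, then 0.71 and -0.07 at lactation days 2 and 10. Virgin gland and gestation day 10 were on another slide than the later mouse arrays. The step from 2.29 to 0.93 falls on that change of slide, and stage and slide cannot be told apart there. Each later mouse array was lower than the one before it. Across both slides, lactation day 10 differed from virgin gland by -2.94 on the log2 scale. In sheep the same difference was 0.73 at cycle day 15, 1.35, 2.18 and 0.32 at gestation days 14, 64 and 125, and 1.37 at lactation day 60, with no such order. The summed scaled level of the epithelial list was 10.8 and 14.2 in mouse lactation, 3.02 and 6.54 in mouse gestation and 1.80 in virgin mice. It was 10.2 in sheep lactation, between 3.86 and 11.6 in sheep gestation and 5.28 in cycle. In the fit of lactation against gestation over both species, 5 of the 6 epithelial miRNAs had a difference above 0 and 1 below it.

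Against the 5 fibroblast and smooth muscle miRNAs on the array (miR-143, miR-145, miR-199a-5p, miR-199b and miR-214), the difference was highest in lactation in both species. In sheep it was 1.79 at cycle day 15, 2.00, 2.23 and 3.32 at gestation days 14, 64 and 125, and 4.56 at lactation day 60. In mouse it was 3.00 in virgin gland, 3.08 and 3.21 at gestation days 10 and 17, then 4.34 and 4.24 at lactation days 2 and 10. All 3 lactation arrays lay above all arrays of earlier stages. The summed level of that list was 0.832 in sheep lactation, between 1.22 and 2.78 in sheep gestation and 3.00 in cycle. In mouse it was 0.938 and 0.659 in lactation, 2.97 and 1.75 in gestation and 2.66 in virgin gland. miR-214 lay at the floor on 2 arrays and miR-145 on 5, which limits how low the list could be read. Against the leukocyte list (6 miRNAs), the difference was 3.99 at sheep cycle day 15, between 4.48 and 4.77 in sheep gestation and 5.99 in sheep lactation, and it stayed between 4.799 and 5.25 in mouse. Of that list miR-155 was at the floor on every array, miR-150 and miR-146a on 8, miR-142-5p on 6 and miR-223 on 3. Against the 27 other vessel miRNAs, the difference was 2.73 at sheep cycle day 15, between 3.18 and 3.71 in sheep gestation and 4.27 in sheep lactation, and it stayed between 3.08 and 3.45 in mouse. Only 13 of the 27 exceeded the floor everywhere, which limits how far the mean of that list could move. These differences were chosen after the values were seen and were not tested, and the part of any of these cell types in the miR-126-3p level was not tested.

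**Figure D4:**
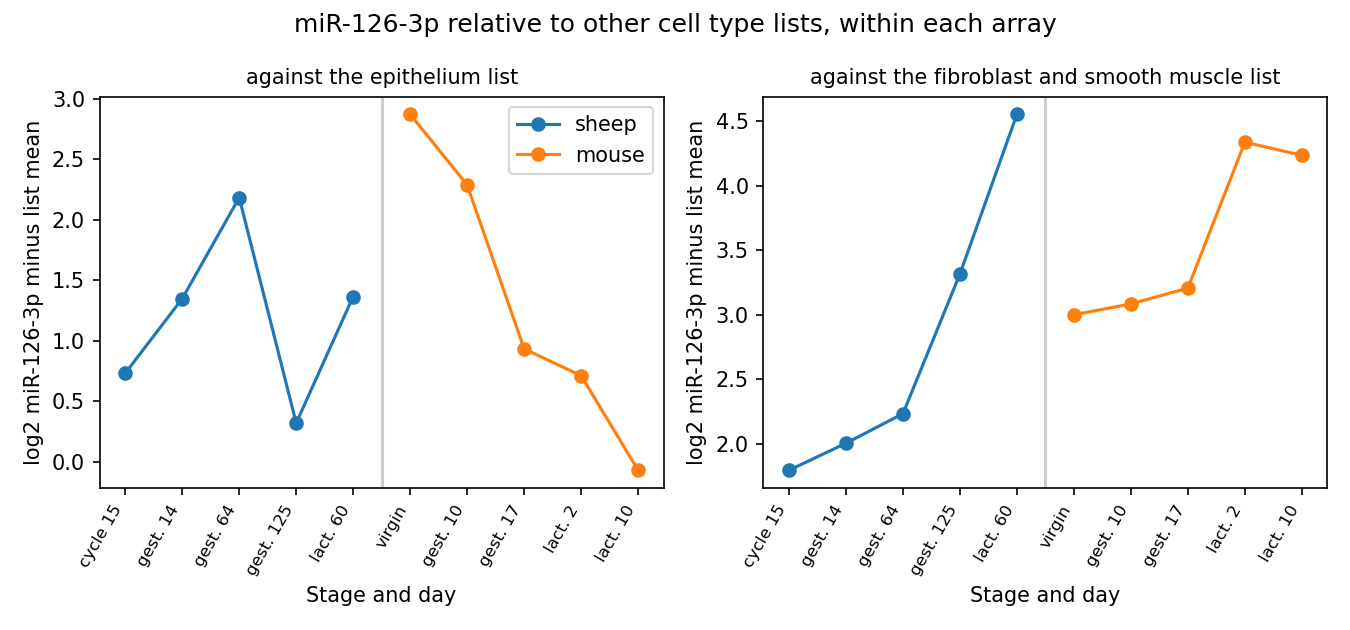
Log2 miR-126-3p minus the mean of the epithelial list (left) and of the fibroblast and smooth muscle list (right) on each array, with stage and day along the x axis, sheep to the left of mouse. Against the epithelial list the mouse values fall from array to array between 2.87 and -0.07, and against the fibroblast list the 3 lactation arrays lie between 4.24 and 4.56. Virgin mice and mouse gestation day 10 were on another slide than the other arrays.

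Other miRNAs studied in endothelium and vessel growth were mostly without a call. Of 29 such miRNAs listed beside miR-126, 28 were on the array and 27 were tested. Among the 27, 13 exceeded the floor everywhere, while for 6 others at least 7 arrays gave only the floor value. miR-17 and miR-132 gave it on all 10, so neither had a difference to call, and the missing calls partly reflect dim signal. In lactation against gestation, 1 of the 27 was lower and none higher by limma, with a median of -0.13 beside 0.00 over all 213 miRNAs. That count is near the 2.82% called over all of them and is no result about the list. With the 28 of the 213 tested miRNAs at the floor on every array left out, 15 of 185 were called in that comparison. Of the list, the lower one was miR-130a, which represses the antiangiogenic homeobox genes GAX and HOXA5, at -1.33 ± 0.24 (adjusted p = 0.0486 by limma). Its log2 scaled level was -3.53 in sheep lactation, between -2.54 and -2.24 in sheep gestation and -2.33 in cycle. In mouse that level was -1.67 and -2.56 in lactation, -0.47 and -0.95 in gestation and -0.30 in virgin gland, so lactation was lowest in each species. The other members with the largest differences were not called: miR-100 at -1.50 ± 0.43, miR-34a at -0.78 ± 0.34 and miR-18a, of the miR-17-92 cluster, at -0.71 ± 0.61. The miR-130a call was a narrow one: it was lost in 21 of 26 alternatives, among them each of the 10 fits with 1 array left out, while its difference stayed negative in all 26, between -2.42 and -0.46.

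In lactation against not pregnant, 2 of these 27 were lower, miR-130a at -1.55 ± 0.30 and miR-218, which targets the Robo receptors of the Slit pathway, at -0.07 ± 0.01 (adjusted p = 0.0434 each by limma), beside 3.76% called over all miRNAs. miR-218 lay at the floor on 8 arrays, which sets its size and its error, and with the floor 4 times lower its difference was -1.92. These calls were lost in 20 and 19 of 26 alternatives. In gestation against not pregnant none was called by limma, beside 0.469% called over all miRNAs. Before adjustment, 5 of all 213 miRNAs had a p under 0.05 there. Between sheep and mouse 2 were higher and 5 lower, a share near the 21.6% called over all miRNAs. The lower ones were miR-322 at -4.57 ± 0.34, miR-16 at -4.00 ± 0.21, miR-378 at -2.41 ± 0.44, miR-130a at -1.66 ± 0.21 and miR-10a at -1.64 ± 0.25. The higher ones were miR-23b at 1.31 ± 0.10 and miR-27b at 1.07 ± 0.24. The calls of miR-322 and miR-16 held in all 24 alternatives, while miR-27b lost its call in 10 of them, miR-378 and miR-10a in 3 each, miR-130a in 2 and miR-23b in 1. miR-16 lay at the floor on 5 arrays, miR-322 on 4, and miR-10a and miR-378 on 2 each, which limits the size of their differences. With the floor 4 times lower, miR-16 was at -6.00 and miR-322 at -5.45. How well these mouse probes match the sheep miRNAs was not examined.

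The miRNAs whose course was most like that of miR-126-3p were sought among 99 tested miRNAs at the floor on at most 3 arrays, by Pearson correlation over the 10 arrays after each species' mean had been taken off. They were miR-139-5p (r = 0.73), miR-22 (r = 0.55), miR-151-5p (r = 0.49), miR-29c (r = 0.49) and miR-10b (r = 0.42), beside a median r of -0.06 over the 99. The lowest r of the 99 was -0.71, so values of this size occurred in both directions. The arrays share their scaling, and these values are a description. miR-139-5p had an r of 0.73 within sheep and 0.80 within mouse, but it stayed between -5.11, the floor, and -4.12 on the log2 scale on all arrays. The other 4 resembled miR-126-3p in sheep, with r between 0.63 and 0.86, and had r between -0.46 and 0.11 in mouse. No likeness is given for miR-126-5p, which lay at the floor throughout.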

How the data were processed

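Per the labels' protocols, RNA from snap-frozen mammary tissue (RNA integrity number of 6 or more) was labelled with Cy3 and hybridised to 1 array per sample. The deposited scanner files hold intensity in arbitrary units on a linear scale, background-subtracted and detrended within each array and not normalized between arrays, from Agilent Feature Extraction 10.5.1.1 per the file headers (9.5 in the submitters' processing notes). The authors' deposited value table is also an intensity, on each array a constant times Agilent's total signal, within 0.1% for 98.6% to 100% of miRNAs whose total exceeded 50. Medians per column ran from -11.6 to 0.836, and the basis of its scaling is unknown. The flags for detection, background and outliers come from the same software, per the file headers, and no spot was saturated.

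Outlier spots were left out, spots were averaged per probe and probes per miRNA, and values were scaled to each array's 75th percentile over the 94 miRNAs that all 10 arrays detected. Values below 0.0290 (-5.11 on the log2 scale), the highest of the arrays' 5th percentiles over detected miRNAs, were set to it. On every array 28 of the 213 tested miRNAs were at that floor, miR-126-5p among them. limma 3.58.1 in R 4.3.3 fitted species and stage class (6 residual degrees of freedom) or a mean per species and stage class (4), with a threshold of 0.05, and was tested on simulated data. Days of a stage class stand in for replicates. p-values measure the spread between these arrays, whose number limits the precision. Named besides the members were the 4 miRNAs of a vessel list with the largest differences between lactation and gestation, any of that list called, and the 5 most like miR-126-3p. The members and lists were chosen with earlier results of these data known.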

Additional observations from a re-analysis of the deposited data

How the results depend on the processing

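No paired analysis was possible because no animal or replicate number ties one array to another. No result on miR-126-3p passed the threshold under any of the alternatives run. Its direction turned as follows, in log2 units. With no scaling, miR-126-3p was at -1.003 for lactation against gestation, -0.78 for lactation against not pregnant and 0.98 for sheep against mouse, beside medians over all miRNAs of -0.67, -0.78 and 0.69, and the difference of the strands between species at 0.60. Quantile normalization put lactation against gestation at -0.43. The 75th percentile over all miRNAs put sheep against mouse at 0.0940, slide as a term at 0.15 and slide 1 alone at 0.17. Mouse alone gave -0.26 for lactation against gestation and -0.15 for lactation against not pregnant. The authors' values as deposited, an alternative chosen after seeing the data, gave -0.64 for gestation and -0.24 for lactation against not pregnant. The cause of these turns was not tested.

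Leaving out 1 array at a time, miR-126-3p ranged from -0.34 to 0.35 for lactation against gestation, from -0.00844 to 0.79 for lactation and from -0.0910 to 0.65 for gestation against not pregnant, from -0.46 to -0.00 for sheep against mouse, from 0.65 to 1.21 for the species difference in the change from gestation to lactation, and from -0.34 to -0.04 for the strands. In the comparisons of stages, the negative ends come without sheep lactation day 60 or, for gestation, without sheep cycle. That species difference stayed above 0 in all 23 alternatives run, between 0.65 and 1.80. For miR-126-5p, quantile normalization and the 75th percentile over all miRNAs gave species differences of 0.68 and 0.75 that passed the threshold. Only the array of sheep lactation day 60 lay above the floor there, so the other arrays had no spread, and no change is read from these values. The counts of calls over all miRNAs ranged from 0 to 24, 0 to 30, 0 to 7, 14 to 97 and 0 to 19 over the alternatives, in the order lactation against gestation, lactation against not pregnant, gestation against not pregnant, sheep against mouse and the species difference, against 6, 8, 1, 46 and 2. Without the 28 miRNAs at the floor on every array, these counts were 15, 11, 0, 59 and 0 of 185, in the same order. The test of the strands was not run with slide as a term or with another filter, and the species difference has no value without the sheep lactation array. What can be said of miR-126-5p is limited by the floor that all arrays share. Signal close to background is a further limit, on the mouse arrays that did not detect it and, for the shorter target, on several others.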
